A study of Caenorhabditis elegans with 2 samples.

Results

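Candidate regions for the nuclear hormone receptor NHR-11, from a list of peaks and background, were examined at the microRNA genes of the nematode Caenorhabditis elegans. A candidate was taken when its summit, the base with the strongest enrichment, lay between 2000 bp upstream and 200 bp downstream of the 5' end of a gene annotated as a microRNA. This window held 179 of the 28727 candidates in the list pooled over both replicates, which is 0.623% of them, on 0.499% of the genome. Of the 261 annotated microRNA genes, 145 (55.6%) had at least 1 candidate in the window and 116 had none. The measurement was ChIP-seq, in which chromatin carrying a tagged protein is precipitated and its DNA sequenced, here from fragments of 150 to 350 bp. Both libraries came from whole L1 larvae, the first larval stage, of strain OP305, with both sexes mixed. Both replicates share one genotype, the unc-119(ed3) III allele with the integrated transgene wgIs305, which carries eGFP-tagged nhr-11. There was 1 group of 2 biological replicates, so no untagged strain, other stage or other genotype stood beside it, and whole animals do not tell which cells a signal comes from. The labels do not say which promoter drives the transgene.

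MicroRNAs are short RNAs cut from hairpin precursors, and they repress messenger RNAs that pair with the seed, bases 2 to 8 of the mature strand. Several C. elegans microRNAs were found through their part in larval timing, and many are encoded in clusters or inside introns of protein-coding genes, so that the 5' end of an annotated hairpin is often not the start of the primary transcript. NHR-11 belongs to the nuclear hormone receptors, zinc-finger transcription factors whose number is greatly expanded in nematodes, and what it does in L1 larvae is less well described than for the conserved members of that class.

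The mature sequences of the mir-51 family are shown first, because all of its genes lay downstream of strong candidates. The members act redundantly in embryonic development, and all 6 genes carry one seed. For each gene the annotated mature strand with the shared seed is given 5′ to 3′, with the seed in capitals, as read from the RefSeq WBcel235 genome at the annotated position.
mir-51: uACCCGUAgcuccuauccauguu
mir-52: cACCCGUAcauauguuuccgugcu
mir-53: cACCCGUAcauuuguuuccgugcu
mir-54: uACCCGUAaucuucauaauccgag
mir-55: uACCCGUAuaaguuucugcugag
mir-56: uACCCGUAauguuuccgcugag

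The DNA around the summits is shown for 3 of the 4 strongest candidates and for the candidates of the mir-51 family and of the mir-64 cluster. Each run holds the summit base with 50 bases on each side on the summit, on the plus strand of ce11 (RefSeq WBcel235), and capitals mark any of the 8 words whose search is described further on. They are chrX:1389525-1389625 for mir-2221, chrII:10868932-10869032 for mir-2216, chrIII:6972044-6972144 for mir-5549, chrX:13145354-13145454 for mir-54, mir-55 and mir-56, chrIV:14033177-14033277 for mir-52, chrIV:11027790-11027890 for mir-53 and mir-51, and chrIII:2172070-2172170 for the mir-64 cluster.
mir-2221: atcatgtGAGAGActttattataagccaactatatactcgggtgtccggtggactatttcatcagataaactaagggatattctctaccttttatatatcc
mir-2216: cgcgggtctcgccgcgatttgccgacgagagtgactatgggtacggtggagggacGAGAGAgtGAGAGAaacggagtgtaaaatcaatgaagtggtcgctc
mir-5549: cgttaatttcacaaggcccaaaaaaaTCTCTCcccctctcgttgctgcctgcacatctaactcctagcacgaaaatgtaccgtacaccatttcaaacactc
mir-54: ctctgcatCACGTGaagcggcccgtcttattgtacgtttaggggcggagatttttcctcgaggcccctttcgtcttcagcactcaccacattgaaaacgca
mir-52: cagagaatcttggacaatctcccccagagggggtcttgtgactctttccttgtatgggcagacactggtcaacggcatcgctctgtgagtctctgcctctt
mir-53: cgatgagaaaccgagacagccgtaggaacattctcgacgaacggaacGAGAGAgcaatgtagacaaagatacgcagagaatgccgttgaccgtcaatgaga
mir-229: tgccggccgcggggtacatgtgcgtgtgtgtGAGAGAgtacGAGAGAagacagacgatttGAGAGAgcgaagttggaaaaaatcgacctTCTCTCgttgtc
The mir-52 run holds none of the 8 words, the mir-54 run holds the E-box CACGTG, and the other 5 hold GAGAGA or its reverse complement.

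The deposited peak lists hold no read counts, so the depth behind each value is unknown. By its label the pooled list holds peaks and background together, so a candidate need not be a bound region. The deposited −log10 q value, which is low where the evidence of enrichment is weak, was 3.16 at the strongest candidate, that of mir-2221. It was 0.0836 at the mir-47 candidate with a pooled signal of 18.4, the median of the candidates at microRNA genes. Each replicate list holds 30000 candidates, and the median signal was 11.8 in replicate 1 against 10.05 in replicate 2. The signal is the authors' own value for each peak, on a scale that neither the labels nor the lists state. It serves only to describe and rank peaks within a list, and levels in the pooled list and in the replicate lists are not on one scale. Replicate values of some regions are therefore also placed by percentile or rank within their own list. Where only the signals are given, they do not show which replicate placed the region higher. A candidate is called here when it is in the authors' list thresholded by the irreproducible discovery rate (IDR), a measure of how alike peaks rank in replicates. That list holds 1141 of the 28727 pooled candidates. On ce11 it is the same set as the pooled candidates with the highest signal, since its lowest signal of 49.94 is above the highest one outside it, 49.92. A call is thus a range of the pooled signal and does not by itself say that both replicates ranked the region high.

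Of the 179 candidates at microRNA genes, 18 were called, which is 10.1% with an exact Clopper-Pearson interval of 6.07 to 15.4% at the 95% level that covers counting error only. Over all pooled candidates the share was 3.97%. The typical candidate at a microRNA gene was no stronger than elsewhere, with a median signal of 18.4 in both sets, and 88 of the 179 were in the weaker 50% of the pooled list. The sets differed in the upper range, which is the same fact as the called share. The upper quartile was 26.9 at microRNA genes and 23.3 over all candidates, and 39 of the 179 (21.8%) were above the 90th percentile of the pooled list. Among called peaks, the median signal was 81.2 for the 18 at microRNA genes and 74.1 for all 1141. The strongest candidate at a microRNA gene, at 265, stayed well under the strongest of the pooled list, at 681. No chance test was made of these differences, so nothing is called particular to microRNA genes from them.

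**Figure D1:**
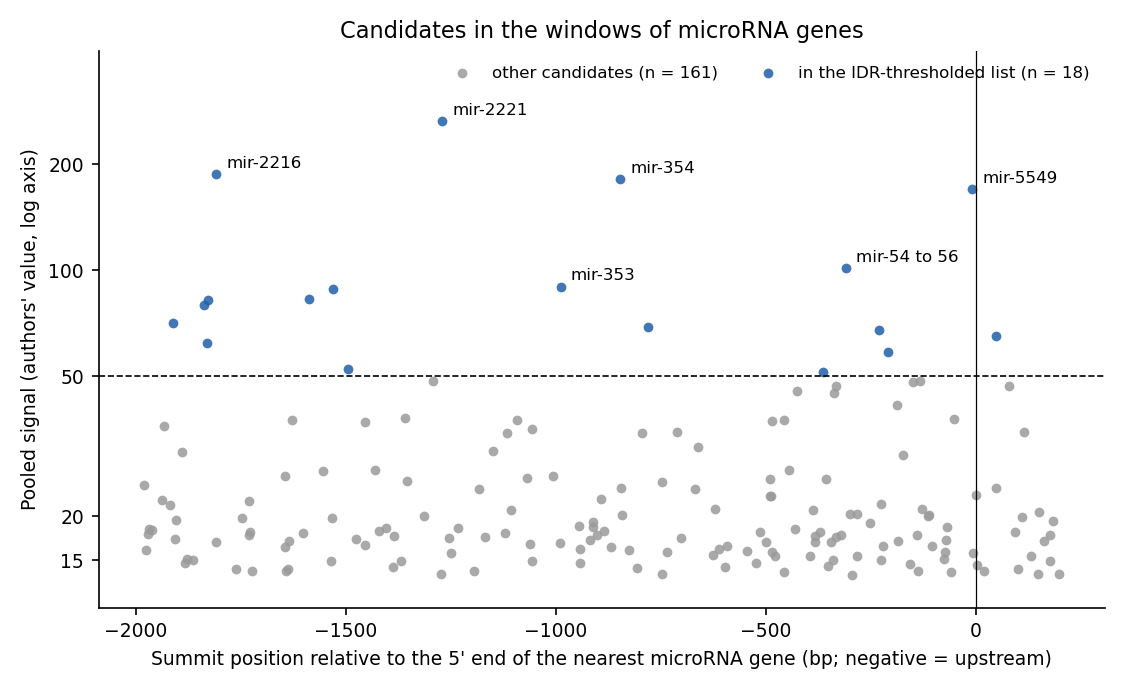
Pooled signal (authors' value, log axis) of the 179 candidates against the position of the summit relative to the 5' end of the nearest microRNA gene in bp, with upstream to the left. Blue points are the 18 called candidates, all above the dashed line at the lowest called signal of 49.9, and they are spread over the whole window from 1911 bp upstream to 48 bp downstream.

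The 18 called candidates lay in the windows of 20 microRNA genes, 7.66% of the 261. The strongest was at mir-2221, which lies between protein-coding genes on the X chromosome. Its candidate at chrX:1389462-1389696 had its summit 1272 bp upstream of the gene and a pooled signal of 265, rank 36 of all candidates. The signal was 121 in replicate 1 and 146 in replicate 2, ranks 50 and 27 of the 2 lists. No protein-coding start lay within 2000 bp of that summit, the nearest being that of F56C3.1 at 2258 bp.

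The next candidates stood closer to starts of protein-coding genes. At mir-2216, within an intron of gmps-1 on chromosome II, the summit lay 1810 bp upstream, 214 bp from a start of cap-2, which encodes the beta subunit of the actin capping protein. Its pooled signal was 187, with 112 in replicate 1 and 76.0 in replicate 2. At mir-354, in an exon of the ribosomal protein gene rps-20 on chromosome I, the pooled signal was 181, with 114 in replicate 1 and 67.0 in replicate 2, and the summit lay 162 bp from a start of ekl-4. At both, the rank was better in replicate 1. The summit at mir-5549 on chromosome III lay only 9 bp upstream of the hairpin and 159 bp from a start of rfc-4, a subunit of the replication clamp loader, with a pooled signal of 170, with 96.4 in replicate 1 and 71.7 in replicate 2. At these 3 genes the window of the microRNA and the promoter of a protein-coding gene cannot be told apart by position.

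Among microRNAs with known roles, mir-71, which acts in lifespan and in the survival of starved L1 larvae, was the only gene with 2 called candidates. The stronger lay 1588 bp upstream, with a pooled signal of 83.0, with 56.2 in replicate 1 and 26.4 in replicate 2. The other lay 363 bp upstream, with a pooled signal of 51.5, with 27.1 in replicate 1 and 23.7 in replicate 2. Both are in the intron of ppfr-1, the protein phosphatase 4 regulatory subunit gene that hosts mir-71 on the same strand, several kilobases from the nearest protein-coding start. The same gene hosts mir-2, whose seed family is deeply conserved in invertebrates, with a called candidate 1832 bp upstream at a pooled signal of 62.0, with 26.7 in replicate 1 and 30.8 in replicate 2. At mir-34, which is known for its part in stress responses and lies between genes on the X chromosome, the called candidate was 1828 bp upstream, with a pooled signal of 82.6, with 38.9 in replicate 1 and 50.4 in replicate 2. The 2 candidates closer to mir-34, at 112 and 353 bp upstream, had pooled signals of 20.2 and 14.4 and were not called.

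The other called genes were mostly less studied. The summit for mir-353, in an intron of rpl-24.1, which encodes a protein of the large ribosomal subunit, lay 230 bp from a start of that gene, had a pooled signal of 89.9 and had a snoRNA gene within 500 bp. The candidate of mir-1828, in an intron of pash-1, lay 1911 bp upstream and 121 bp from a start of pash-1, and had a pooled signal of 70.8, with 36.1 in replicate 1 and 32.7 in replicate 2. PASH-1 is the partner of Drosha in the cut that releases microRNA hairpins. The remaining pooled signals were 88.6 at mir-2215, 79.8 at mir-2212 and mir-1819, which share the candidate, 67.8 at mir-90, 65.1 at mir-8209, 58.6 at mir-4929 and 52.5 at mir-2211. The mir-4929 gene lies in an intron of E01G4.3, but the summit of its candidate lay 29 bp from a start of E01G4.3. There too, position does not tell the window of the microRNA from the promoter of the protein-coding gene. At mir-353 the signal was 45.1 in replicate 1 and 45.8 in replicate 2, percentiles 98.5 and 98.7 of the 2 lists, and at mir-2215 it was 45.9 and 44.1, percentiles 98.5 and 98.6. At mir-90 it was 42.0 and 23.1, with the higher percentile in replicate 1. At mir-2212 and mir-1819 it was 28.0 and 51.0, and at mir-4929 20.8 and 35.8, with the higher percentile in replicate 2. The widest gaps were at mir-8209 and mir-2211. At mir-8209 the signal was 51.3 in replicate 1 and 12.2 in replicate 2, and at mir-2211 it was 38.7 and 7.29, at percentiles 98.0 and 3.23 of the 2 lists. At both genes the percentile was higher in replicate 1, and at mir-8209 it was 98.8 against 70.8 in replicate 2.

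The mir-51 family was the listed family with the strongest candidates throughout. All 6 genes had a candidate, 4 of them a called one, where 55.6% of all microRNA genes had a candidate and 7.66% a called one. The median percentile of each gene's strongest candidate was 98.3, where the median over the 145 microRNA genes with a candidate was 60.6. These 6 genes are not 6 observations, because their strongest candidates are 3 regions at 3 loci. The cluster of mir-54, mir-55 and mir-56 on the X chromosome shares a region 310 to 617 bp upstream of its genes, in an intron of F09A5.3 on the opposite strand. Its pooled signal was 101.2, with 55.0 in replicate 1 and 47.4 in replicate 2, percentiles 98.9 and 98.8 of the 2 lists.

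The mir-52 candidate on chromosome IV lay 781 bp upstream with a pooled signal of 68.8, with 30.6 in replicate 1 and 56.4 in replicate 2. A further candidate 80 bp downstream of the 5' end of mir-52 was just under the called range, with a pooled signal of 46.8, with 33.6 in replicate 1 and 18.0 in replicate 2. The replicates thus stood in opposite order at these 2 regions of one gene, by signal and by percentile within their own lists. The last of the 3 loci holds mir-51 and mir-53, also on chromosome IV, whose shared candidate lay 149 bp upstream of mir-53 and 1728 bp upstream of mir-51. Its pooled signal was 48.2, with 26.4 in replicate 1 and 17.2 in replicate 2, rank 1225 and so just outside the called list of 1141. Within the family, the lowest percentile of a gene's strongest candidate was 95.7 in the pooled list, at mir-51 and mir-53. In replicate 2 that region stood at percentile 89.5.

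In the mir-64 cluster on chromosome III, mir-229, mir-64, mir-65 and mir-66 lie in a row, and 1 candidate, 332 bp upstream of mir-229 in an intron of the translation regulator gene gcn-1, was the only one in the windows of all 4. Its pooled signal was 46.8, percentile 95.5, with 31.0 in replicate 1 and 23.9 in replicate 2, and it was not called. The seed family of mir-238, mir-239a and mir-239b also had candidates for all of its 3 genes. The region shared by mir-239a and mir-239b had a pooled signal of 44.7, with 19.3 in replicate 1 and 21.1 in replicate 2. A snoRNA gene lay within 500 bp of its summit. The strongest candidates that were not called were at mir-5595, with a pooled signal of 48.6, and at mir-2214, with 48.5, both in promoter windows of protein-coding genes. The 7 listed groups were chosen with earlier results of these data known, and their counts are descriptions.

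**Figure D2:**
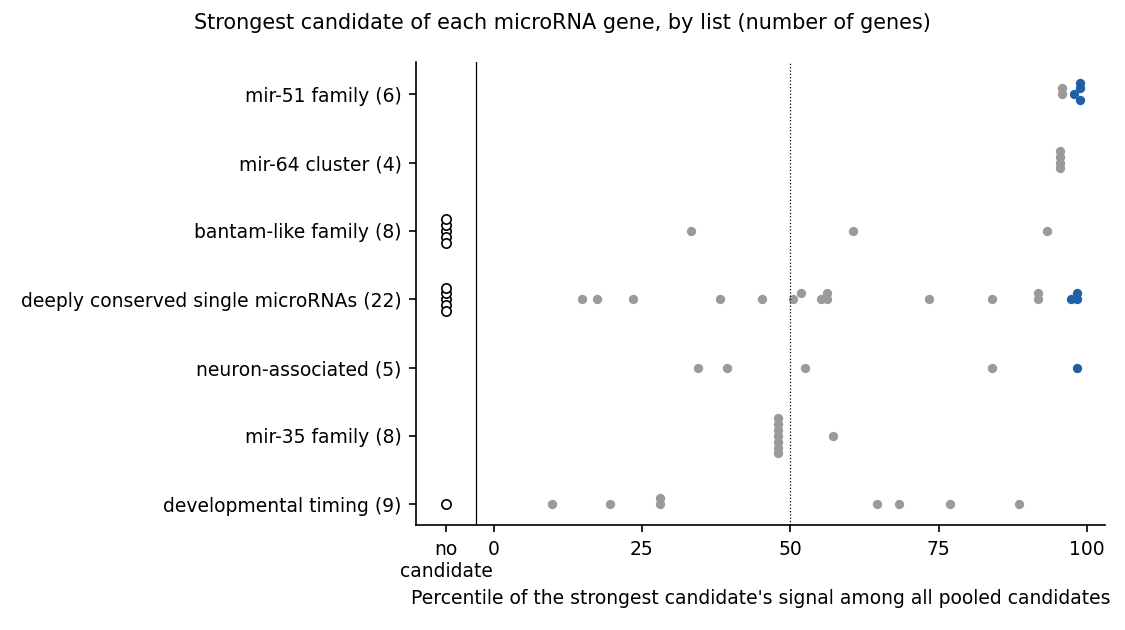
Percentile of each microRNA gene's strongest candidate by pooled signal among the 28727 pooled candidates, for 7 groups of microRNA genes, 1 point per gene. Blue points are genes with a called candidate, and open points are genes without a candidate. Points at the same percentile in the mir-51, mir-64 and mir-35 groups share a region. The same holds for mir-794 with mir-795 and for mir-73 with mir-74. All genes of the mir-51 and mir-64 groups stand at 95.5 or above in the pooled list, though mir-51 and mir-53 stand at 89.5 in replicate 2 alone. The developmental timing genes range from 9.78 at mir-237 to 88.6 at let-7 in the pooled list, 2 genes that stand at 80.5 and 36.6 in replicate 2 alone.

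The developmental timing microRNAs are lin-4, which represses lin-14 as larvae leave the first stage, its relative mir-237, and the let-7 family, which acts at later transitions. Of the 9 genes, 8 had a candidate, none was called, where 7.66% of all microRNA genes had a called one, and the median percentile was 46.3. The strongest was at let-7, with a pooled signal of 30.5, with 20.2 in replicate 1 and 9.06 in replicate 2, percentiles 90.6 and 36.6 of the 2 lists. Its summit lay 1891 bp upstream of the annotated gene, which includes part of the primary transcript, and 2941 bp from the hairpin, 91 bp from a start of the protein-coding gene C05G5.2. At lin-4 the strongest candidate lay 1920 bp upstream with a pooled signal of 21.6, with 8.70 in replicate 1 and 11.1 in replicate 2. The pooled signal was 23.97 at mir-241, 20.8 at mir-84, 15.1 at mir-793 and 14.3 at mir-237. It was 15.9 at mir-794 and mir-795, which share a region that no candidate of either replicate overlapped. The order of these genes depends on the replicate, since mir-237, the lowest at percentile 9.78 of the pooled list, had a candidate at percentile 80.5 of replicate 2 and none in replicate 1. No candidate lay in the window of mir-48, which acts with mir-84 and mir-241 in the step from the second to the third larval stage.

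The mir-35 family, needed for embryonic development, had candidates for all 8 genes but none called, where 7.66% of all microRNA genes had a called one. These were 2 regions, 1 shared by the 7 clustered genes from mir-35 to mir-41 with a pooled signal of 18.1 and 1 at mir-42 with 19.5. The first overlapped a candidate of replicate 1 alone. In the bantam-like family, 3 of the 8 annotated genes had a candidate, beside 55.6% of all microRNA genes. The pooled signals were 38.2 at mir-58a, 20.1 at mir-80 and 16.4 at mir-82. The mir-58a region overlapped a candidate of replicate 1, at 32.0, and none of replicate 2. A further mir-58a candidate, 485 bp upstream with a pooled signal of 37.4, was overlapped in both, at 11.6 in replicate 1 and 25.5 in replicate 2. No candidate was found for mir-58b, mir-81, mir-2209a, mir-2209b or mir-2209c.

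Of the 22 deeply conserved microRNAs listed, 17 had a candidate and 3 a called one, namely mir-71, mir-34 and mir-2. Of all microRNA genes, 55.6% had a candidate and 7.66% a called one. The median percentile of the 17 was 56.2, under the 60.6 of all microRNA genes with a candidate, and the lowest were mir-72 at 14.8, mir-233 at 17.5 and mir-44 at 23.5. The pooled signal at the muscle microRNA mir-1 was 34.8, percentile 91.8 of the pooled list, with 30.05 in replicate 1 and 15.5 in replicate 2. At mir-79, a relative of the miR-9 family, the pooled signal was 34.8, with 11.02 in replicate 1 and 23.3 in replicate 2. At mir-124, which is expressed in sensory neurons, it was 27.1, with 16.4 in replicate 1 and 15.3 in replicate 2. All 5 listed genes that act in neurons had a candidate, and only mir-71 had a called one. The pooled signal was 18.7 at mir-273, 17.1 at the left-right asymmetry regulator lsy-6 and 16.5 at the carbon dioxide response gene mir-791. At percentile 39.4 of the pooled list, lsy-6 stood at 78.5 in replicate 1 and 36.3 in replicate 2. At percentile 34.5, mir-791 stood at 65.4 in replicate 1 and 64.1 in replicate 2, higher than in the pooled list in both.

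The 116 genes without a candidate lay on all chromosomes. On chromosome I they were mir-8204, mir-244, mir-245, mir-4932, mir-1817, mir-5545, mir-2218a, mir-1818 and mir-8187. On chromosome II they were mir-8186-1, mir-5593.1, mir-5593.2, mir-4805, mir-8199, mir-5548, mir-260, mir-261, mir-1822, mir-60, mir-252, mir-355, mir-8188, mir-5594, mir-45, mir-43, mir-77, mir-267, mir-4933 and mir-2217b-2. Chromosome III held only 6, which were mir-4938, mir-8206, mir-356b, mir-272, mir-1832a and mir-4814. Chromosome IV held 27, which were mir-5550, mir-2209b, mir-2208b, mir-2209a, mir-2209c, mir-4930, mir-270, mir-242, mir-8191, mir-4815, mir-58b, mir-58c, mir-1820, mir-83, mir-4920, mir-4934, mir-4924, mir-8208, mir-265, mir-798, mir-2217.4, mir-78, mir-2217.5, mir-8198, mir-1021, mir-1832b and mir-789-2. Chromosome V held 17, which were mir-8194, mir-2219, mir-8200, mir-4922-2, mir-4922-1, mir-255, mir-70, mir-357, mir-358, mir-259, mir-268, mir-48, mir-8197, mir-257, mir-5552, mir-12134 and mir-262. The X chromosome held 37, which were mir-258.2, mir-258.1, mir-796, mir-4807, mir-4808, mir-4809, mir-2220, mir-4810b, mir-4810a, mir-8196a, mir-75, mir-81, mir-271, mir-266, mir-247, mir-797, mir-360, mir-240, mir-786, mir-8203, mir-784, mir-5553, mir-788, mir-49, mir-251, mir-787, mir-62, mir-392, mir-5592-1, mir-5592-2, mir-8196b, mir-1829c, F39B1.3, mir-4812, mir-1829a, mir-63 and mir-2217b-1. Because the depth is unknown, a missing candidate says only that no region there entered the pooled list, whose lowest signal is 13.6.

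By chromosome, genes with a candidate were most frequent on chromosome III, at 21 of 27 genes (77.8%), and on chromosome I, at 24 of 33 (72.7%). They were least frequent on chromosome V, at 11 of 28 (39.3%), and none of the 9 candidates there was called, where 3.93% of all candidates of that chromosome were. Chromosome I held 8 of the 18 called candidates, from 37 of the 179 candidates (21.6%), beside 4.25% of all candidates of that chromosome. The 8 include both regions of mir-71 and that of mir-2, which lie in the same host gene. The X chromosome held the most microRNA genes, 74, with a candidate at 37 of them and a called one at 7. Some of the 7 share a region, and 4 of the 46 candidates there were called (8.70%), beside 3.51% of all candidates of that chromosome.

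The 2 replicate lists backed the pooled candidates unevenly. Of the 179 pooled candidates, 85 (47.5%) were overlapped by a candidate of both replicates, where the share over all pooled candidates was 39.2%. A further 36 were overlapped in replicate 1 only and 44 in replicate 2 only, and 14 in neither. All 18 called candidates were overlapped in both lists. When only the strongest 1141 candidates of each replicate were kept, 11 of the 18 were overlapped in both, 3 in replicate 1 only and 3 in replicate 2 only. The remaining one, the weaker region of mir-71, was overlapped in neither. Over the 85 candidates seen in both, the replicate signals had a Spearman correlation of 0.567, and over the 11259 such candidates of the whole list it was 0.389. These are descriptions, since the regions come from the same 2 libraries. Some pooled candidates also overlap each other and take the same replicate candidates, as a pair at mir-5595 does, so the 85 are not all separate. The ratio of replicate 1 to replicate 2 had a median of 1.18 over the 85, near the 1.15 over the 11259. Among the called ones it ranged from 0.543 at mir-52 to 5.31 at mir-2211.

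**Figure D3:**
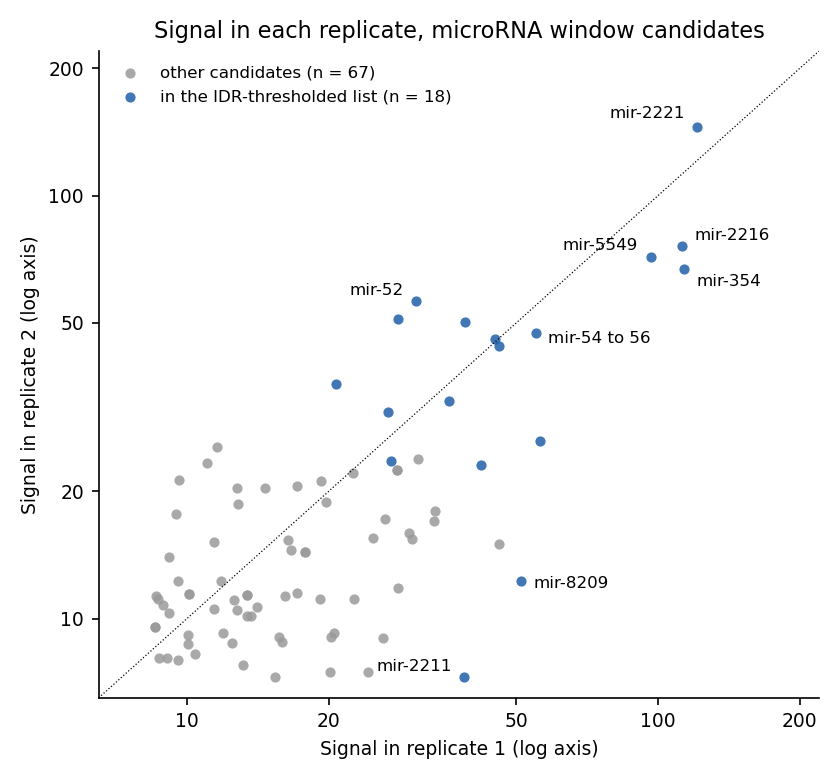
Signal in replicate 1 against signal in replicate 2 (log axes, authors' values) for the 85 candidates that a candidate of each replicate overlaps, with the 18 called ones in blue and equality as a dotted line. The 4 strongest, at mir-2221, mir-2216, mir-354 and mir-5549, are high in both replicates, while mir-8209 and mir-2211 are at 12.2 and 7.29 in replicate 2.

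Candidates were found at all distances in the window. Counted as pairs of a gene and a candidate, there were 12.4 per 100 bp in the first 500 bp upstream, 9.8 in the next 500 bp, 7.6 in the 500 bp after that, 9.2 in the farthest 500 bp and 8.96 in the downstream stretch. The called candidates were not gathered near the hairpins, as 9 of the 18 lay more than 1000 bp upstream, beside 70 of all 179. At the edges of the rule, the last candidates inside were at mir-239b, 1980 bp upstream with a signal of 24.5, and at mir-4811, 198 bp downstream with 13.7. The first ones outside were at mir-43, 2003 bp upstream with 19.5, and at mir-360, 217 bp downstream with 17.2.

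The place of the candidates relative to protein-coding genes follows in part from the rule, because most microRNA genes lie between protein-coding genes, and is given as a description. Between protein-coding genes lay 82 of the 179 (45.8%), where 25.8% of all candidates did, and coding exons held 3 (1.68%), where 10.1% of all did. Promoter windows of protein-coding genes, from 1000 bp upstream to 200 bp downstream of a start, held 48 (26.8%), near the 32.0% of all. Of the 131 outside such promoters, 12 (9.16%) were called, beside 2.22% of all candidates outside promoters. Within introns, 5 of 44 (11.4%) were called, at mir-54 to mir-56, mir-71, mir-90 and mir-2, beside 1.79% of all intronic candidates. Both regions of mir-71 and that of mir-2 lie in the same host gene, ppfr-1, so the 5 are not 5 separate loci. Between genes, 7 of 82 (8.54%) were called, beside 3.59%. In promoter windows it was 6 of 48 (12.5%), beside 7.69%.

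The setting of the genes themselves showed a like spread. Of the 68 microRNA genes in an intron on the same strand as the host, 45 had a candidate and 7 a called one. Of the 152 between protein-coding genes, 76 had a candidate and 9 a called one. The 33 on the opposite strand of a protein-coding gene had a candidate at 17 and a called one at 3, and the 8 in exons at 7 and 1. For comparison, with the same window, 10154 of 19973 protein-coding genes (50.8%) had a candidate and 5.82% a called one. For genes of snRNAs and snoRNAs the shares were 62.9% and 13.9%, and for tRNA genes 65.2% and 3.92%, so microRNA genes, at 55.6% and 7.66%, lay between these classes in both shares. These shares stand side by side without a test, and windows of different classes overlap.

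The 8 short words were searched on both strands within 50 bp of each summit, as exact matches that may overlap. They were the repeat GAGAGA, the word GACGCA and the E-box CACGTG, which basic helix-loop-helix factors bind. Nuclear receptor core words were searched in the form AGGTCA, in the form AAGTCA and in the form AGTGCA. The splice acceptor word TTTTCAG and the GATA factor word GATAAG were added. GAGAGA stood in 24 of the 179 runs (13.4%), beside 8.35% of all candidates. Among called candidates it stood in 10 of 18 (55.6%), beside 30.6% of all called ones, and among those not called in 14 of 161 (8.70%), beside 7.43%. The 10 are both regions of mir-71 and those of mir-2221, mir-2216, mir-5549, mir-1828, mir-90, mir-8209, mir-2 and mir-4929. GACGCA stood in 3 of the 18 (16.7%), beside 19.6% of all called ones, and CACGTG in 2, those of mir-34 and mir-54 to mir-56 (11.1% beside 5.61%). None of the 18 held any of the other 5 words, which stand in 2.45 to 6.13% of all called candidates, and a missing word says only that these letters are not in that run. The called regions were also richer in G and C, with a median of 48.5% beside 45.5% of all called ones and 33.7% of all candidates, and 15 of the 18 were above 45%. The region of mir-2221, the strongest, was the poorest at 35.6%.

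**Figure D4:**
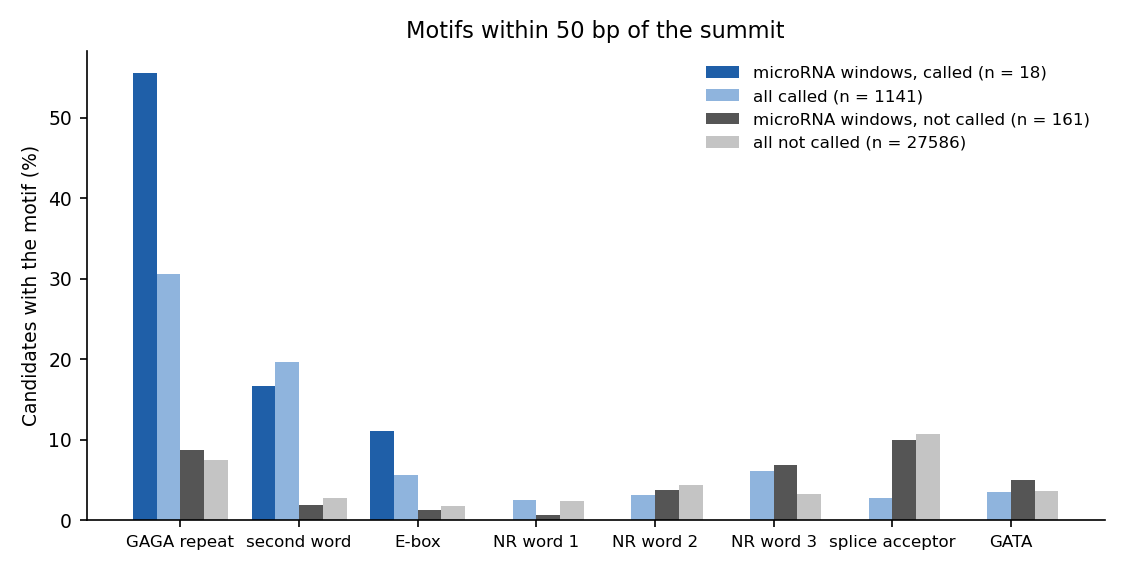
Share of candidates (in percent) with a word within 50 bp of the summit, for the 18 called and 161 other candidates at microRNA genes and for all called and all other candidates. From left to right the words stand in the order of the text, with the 3 nuclear receptor (NR) words before the splice acceptor word and the GATA word, and the highest bar is GAGAGA at 55.6% of the called candidates at microRNA genes.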

How the data were processed

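The authors deposited narrowPeak lists from ChIP-seq of whole L1 larvae, with 1 list of candidates for each of 2 replicates, 1 for the pooled replicates and 1 thresholded by the irreproducible discovery rate. Per the labels, lists exist on the ce10 and ce11 builds, and the ce11 lists were used; those on ce10 were not used here. The signal of each peak is the authors' own, and the deposited −log10 q value was read but not used for ranking. No source used here states the aligner, the peak caller, their versions or the threshold. The control reads that the labels point to were not analysed here.

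Summits were placed against microRNA genes of Ensembl release 115 (WBcel235), with symbols and sequence from RefSeq. Replicate values are those of the overlapping replicate candidate (1 bp or more) with the nearest summit. Computing used Python 3.11.15, numpy 2.4.6, pandas 2.3.3, scipy 1.17.1 and matplotlib 3.10.9. The matching steps were tested on simulated data. With 1 group, no comparison between groups was possible, and p-values were not computed. Genes were named when they had a called candidate, belonged to 1 of 7 lists of microRNAs, or had no candidate. Of the other genes with a candidate, mir-5595, mir-2214, mir-238, mir-239a, mir-239b and those at the edges of the window were named after their values were seen. The members and lists were chosen with earlier results of these data known. Alternatives changed the window, the overlap, the promoter window, the called list, the genes used, and the replicate lists. Replicates are separate samples per the labels, but nothing says whether they came from separate cultures.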

Additional observations from a re-analysis of the deposited data

How the results depend on the processing

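The share of candidates at microRNA genes that were called was 10.1%, and it ranged from 7.76% to 12.6% under the other windows, gene sets and replicate lists, but was 5.59% when only the upper 570 called peaks counted as called, beside 1.98% of all candidates. A window of 1000 bp upstream left 109 candidates and 11 genes with a called one. With 500 bp upstream, 75 candidates, 72 genes with a candidate and 7 with a called one were left. Using only the 185 genes outside same-strand protein-coding genes gave 116 candidates, 93 genes with a candidate and 12 with a called one. The upper 570 called peaks gave 13 genes. Candidates overlapped in both replicates fell from 85 to 44 when summits had to be within 100 bp, and to 12 when only the strongest 1141 of each replicate were used. The share in protein-coding promoter windows was 19.0% with 500 bp upstream and 0 bp downstream, and 38.5% with 2000 bp upstream and 500 bp downstream. Leaving out each replicate gave a median signal of 10.6 to 12.5, because each replicate list has its own scale, with 167 to 191 candidates. By the strongest candidate in each replicate list alone, which may be another region than the pooled one, 17 of the 62 named genes with a candidate moved in percentile by over 1.5 times, and none of the 17 had a called one. The widest moves were at mir-237, from 9.78 to 80.5 in replicate 2, at mir-72, from 14.8 to 56.8 in replicate 1 and 84.7 in replicate 2, at mir-44, from 23.5 to 81.9 in replicate 2, at mir-233, from 17.5 to 57.4 in replicate 1, at mir-42, from 57.2 to 11.5 and 19.7, at mir-80, from 60.6 to 33.2 and 23.0, and at let-7, from 88.6 to 36.6 in replicate 2. Of the 62, 10 lacked a candidate in 1 or both lists. Among called genes, mir-8209 stood at 70.8 in replicate 2, and mir-2211 at 76.5 through another region than the called one. With hairpin 5' ends, an alternative added after seeing the data, let-7 lost its candidate and no other gene gained or lost all of its candidates. No paired analysis was possible because there is 1 group and the result comes from no test. The depth is unknown, so an absent candidate cannot be read as absent binding.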
